A study of Mus musculus with 40 samples.

Results

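Genes of fatty acid oxidation and of the peroxisome proliferator-activated receptors (PPAR) were followed by diet, endothelial EGFR genotype and tissue. The set holds 36 genes chosen by name and function, not by their values, namely enzymes of mitochondrial and peroxisomal fatty acid oxidation, their transporters and regulators, and targets of PPAR-alpha. All 36 were found by symbol among the 55382 genes counted in kidneys and among the 55335 counted in aortas. After a filter on low counts, 35 of the 36 could be tested in kidneys (not Ucp3) and 33 in aortas (not Slc27a2, Cpt1b and Fabp1). RNA of C57BL/6 mice came from 40 libraries, 20 of kidney and 20 of aorta, with 5 for each combination of genotype and diet. EC-EGFR-KO mice (KO) were bred from animals with floxed EGFR alleles and a Cre recombinase driven by the Tek (Tie2) promoter, which is active in endothelial cells. EC-EGFR-WT controls (WT) carried the same Cre without loxP sites, so every group held the transgene. The standard fat diet (SFD, written SD in the labels) gave 10% of energy as fat and the high fat diet (HFD) 60%. HFD was fed for 18 weeks from an age of 6 weeks, after 7 days on a 1:1 mixture of both diets at about 5 weeks. RNA was taken from whole kidneys and from aortas cleaned of fat, so endothelial cells supplied only some of it.

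Fatty acids are taken up, joined to coenzyme A and carried into mitochondria as carnitine esters, where each turn of a cycle of reactions removes a short acetyl unit. Peroxisomes shorten very long and dicarboxylic fatty acids before mitochondria take over. PPAR-alpha is a nuclear receptor that binds fatty acids, pairs with the retinoid X receptor and switches on many of these genes. Proximal tubule cells of the kidney draw most of their energy from fatty acids, whereas the aortic wall is built mainly of smooth muscle cells.

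Kidney libraries held 19643033 to 48833447 gene counts (median 24182781) and aortic libraries 17520161 to 36452741 (median 19683938). Values varied between libraries of a group by 22.3% in kidneys and 29.0% in aortas, as edgeR's biological coefficient of variation. Both tables hold 0 counts for genes on the end of chromosome 8 and on chromosomes 9, X, Y and the mitochondrial genome, and none of the 36 genes lies there. The KO deletes exon 1 of Egfr, and counts on its other exons can remain. Egfr, which tubule and smooth muscle cells also express, ranged from 21.7 to 64.5 FPM in kidneys and from 29.9 to 54.7 FPM in aortas, where FPM stands for counts scaled to 1000000 per normalized library. It did not pass the test for KO against WT in either tissue under either diet (adjusted p between 0.916 and 1.00). One kidney pair of different genotype, a1 (KO HFD) and a12 (WT HFD), differed by less than sampling noise (median chi-square over genes 0.0252, next pair 1.63), and so did the aortas R-1 (WT SFD) and R-12 (KO SFD) at 0.0262 (next pair 1.62). Each pair spans both genotypes, so counts are also given without them. The aortas held 25851 to 41297 FPM of 7 smooth muscle markers in sum (Cnn1 and Tagln lie where the table holds no counts), the kidneys 72.8 to 118 FPM, and distal tubule markers summed to at most 0.302 FPM in the aortas. Of the SFD kidneys, a8, a9 and a17 carried high immediate-early genes, and a18 (WT SFD) held the highest value of all 20 kidneys for 19 of the 36 genes. In a18 the endothelial markers were 1.07 and the podocyte markers 1.52 lower than the mean kidney on the log2 scale. Where fewer cells of a type were present and where each cell held less RNA cannot be told apart in such bulk samples. The labels tie no library to a numbered mouse, so p-values measure the spread between these libraries, which may in part be technical. Values per library are listed in the order of their numbers, for kidneys a16 to a20 in WT SFD, a11 to a15 in WT HFD, a6 to a10 in KO SFD and a1 to a5 in KO HFD, and for aortas R-1 to R-5, R-6 to R-10, R-11 to R-15 and R-16 to R-20 in the same order of groups.

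Under SFD, kidneys of WT mice expressed nearly the whole set above the level of the aorta. In a single fit of all 40 libraries, 33 of the 36 genes were higher in WT SFD kidneys than in WT SFD aortas at an adjusted p under 0.05 and 0 were lower. Of all 17514 genes in that fit, 75.2% differed between the tissues, 38.7% being higher in kidneys and 36.5% lower. The median log2 difference was 2.22 for the set and 0.025 for all genes. Each tissue has its own count table, so tissue and table cannot be told apart. Per kilobase of exons, the highest level in WT SFD kidneys was that of Slc27a2, which activates and takes up long and very long fatty acids, with 1253 ± 203 FPKM (SD, n = 5). It was followed by the medium-chain dehydrogenase Acadm with 357 ± 42.2 FPKM and the peroxisomal enzyme Ehhadh with 294 ± 28.9 FPKM, and the ranges of these last 2 over the 5 libraries overlapped. Slc27a2 alone made up 30.8 to 42.1% of the counts on the set in the 20 kidneys. In WT SFD aortas the order was led by the acyl-CoA dehydrogenases Acadl (48.9 ± 4.10 FPKM, SD, n = 5) and Acadm (40.3 ± 3.56 FPKM), then the thiolase Acaa2 (38.2 ± 6.12 FPKM) and the muscle-type fatty acid binding protein Fabp3 (33.7 ± 7.61 FPKM), and from Acadm to Fabp3 each overlapped the next, while Acadl lay above Acadm in every library.

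The difference between the tissues was largest for Slc27a2, with a log2 difference of 15.91 (adjusted p = 1.13e-23, SE 0.60), with only 10 counts in the 5 WT SFD aortas together. Ehhadh followed with 6.33 (adjusted p = 5.99e-30, SE 0.14), then the thioesterase Acot1 with 5.82 (adjusted p = 1.82e-24, SE 0.21) and the pantetheinase Vnn1 with 5.47 (adjusted p = 5.99e-26, SE 0.17). The receptor Ppara was also far higher in kidneys, by 4.72 (adjusted p = 1.61e-11, SE 0.46). Fabp1, the liver-type fatty acid binding protein, had 0 counts in the 5 WT SFD aortas and 49 in the 5 WT SFD kidneys, which makes it at least 15.2-fold higher in kidneys, taking 3 counts over the group as the floor. At the other end stood the trifunctional protein subunit Hadha with 0.97 (adjusted p = 5.75e-11, SE 0.10) and the acyl-CoA synthetase Acsl1 with 0.94 (adjusted p = 1.75e-06, SE 0.16), the smallest that passed. The 3 genes that did not pass were the receptor Ppard with 0.31 (adjusted p = 0.37, SE 0.31), the pyruvate dehydrogenase kinase Pdk4 with 0.42 (adjusted p = 0.225, SE 0.31) and the uncoupling protein Ucp3 with 0.10 (adjusted p = 0.893, SE 0.67), of which Pdk4 passed without a16.

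**Figure D1:**
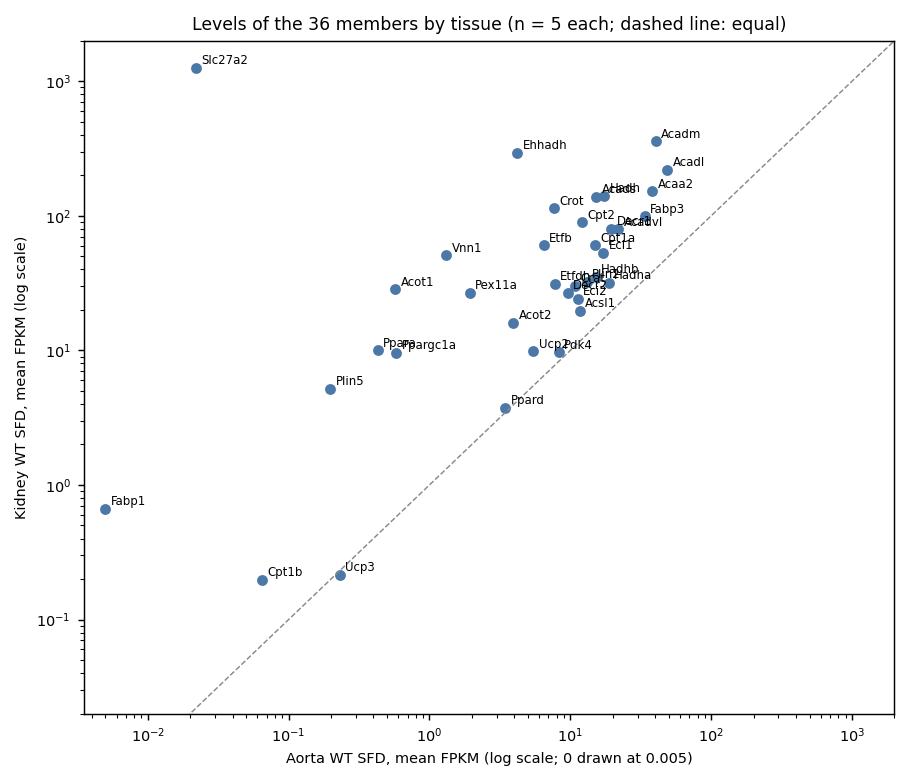
Mean level of the 36 genes in WT SFD aortas (x axis) and WT SFD kidneys (y axis), in FPKM on log axes, n = 5 libraries each. Points above the dashed line are higher in kidneys. Slc27a2 and Ehhadh lie far above it, Ppard, Pdk4 and Ucp3 close to it, and Fabp1, at 0 in the aortas, is drawn at 0.005.

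HFD changed part of the set in kidneys, and in both directions. Averaged over genotypes, 10 of the 35 genes tested (28.6%) passed an adjusted p of 0.05, where 16.4% of all 15943 genes did. Of these, 3 were higher under HFD (Acaa2, Ucp2 and Fabp1, against 7.7% of all genes) and 7 lower (Slc27a2, Crat, Acadl, Acadm, Acads, Ehhadh and Crot, against 8.7%). In WT kidneys alone 6 of 35 passed (17.1%, with 6.71% of all genes), and in KO kidneys alone also 6 (17.1%, with 6.34%). The median log2 fold change of the set was close to that of all genes, at -0.048 against -0.0012 averaged over genotypes. In the set 15 genes were above 0 and 20 below, and of all genes 49.8% were above 0. With the study's added limits of a fold change over 1.5 and 5 FPM, 1 gene passed in WT (Ehhadh) and 2 in KO and averaged (Acaa2 and Ehhadh), where 2.18%, 2.16% and 2.92% of all genes did. The set took 1.15 to 1.33% of all kidney counts under SFD (median 1.22%) and 1.02 to 1.16% under HFD (median 1.07%), ranges that meet only at their ends.

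Marker genes of cell types were summed in the same kidneys. The 9 proximal tubule markers, where these enzymes are mostly found, summed to 9682 to 13251.5 FPM under SFD and to 11126.5 to 12753.5 FPM under HFD, all 9 being measured. The 12 white adipocyte markers summed to 1859 to 3842 FPM and to 2971 to 4681 FPM, mostly through Pck1, an enzyme of gluconeogenesis that kidneys express themselves. The 10 skeletal muscle markers summed to 13.9 to 47.0 FPM and to 46.4 to 85.0 FPM, nearly all from Pvalb, which distal tubules also express, while Myh2 was at 0, as was Acta1, which lies where the table holds no counts. The 8 macrophage markers summed to 107.6 to 180.6 FPM under SFD and to 151.6 to 218.8 FPM under HFD. The white adipocyte, skeletal muscle and macrophage markers reached their highest sums under HFD, and so did the lymphoid, podocyte and distal tubule markers. The highest single sums of the brown adipocyte, cardiac and smooth muscle, endothelial, proximal tubule and collecting duct markers were found under SFD. The endothelial sums spanned 149 to 389 FPM under SFD and 321 to 366 FPM under HFD, so their lowest sum was also under SFD. As mean log2 levels relative to the mean kidney, the proximal tubule markers ran from -0.69 to 0.12 under SFD and -0.023 to 0.23 under HFD. Single adipocyte markers differed in direction. Mean Cfd fell under HFD in both genotypes and mean Lep rose in both. Mean Adipoq went from 5.02 to 3.67 FPM in WT and from 1.24 to 6.28 FPM in KO. The part of these cell types in the diet effects below was not tested. Proximal tubule markers themselves moved with diet in both directions. Mean Slc5a2 went from 359 to 632 FPM in WT and from 373 to 672 FPM in KO. Mean Slc22a6 went from 1219 to 843 FPM in WT and from 1116 to 878 FPM in KO. A score of these markers therefore cannot stand for the share of tubule cells. As a covariate it left 7 of the 10 averaged calls in place (not Acadl, Acads and Ucp2) and added Cpt1a. With that covariate the log2 fold changes of Acadl, Acads and Ucp2 were -0.17 (adjusted p = 0.145), -0.25 (adjusted p = 0.125) and 0.34 (adjusted p = 0.0617), beside -0.18, -0.28 and 0.32 without it.

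**Figure D2:**
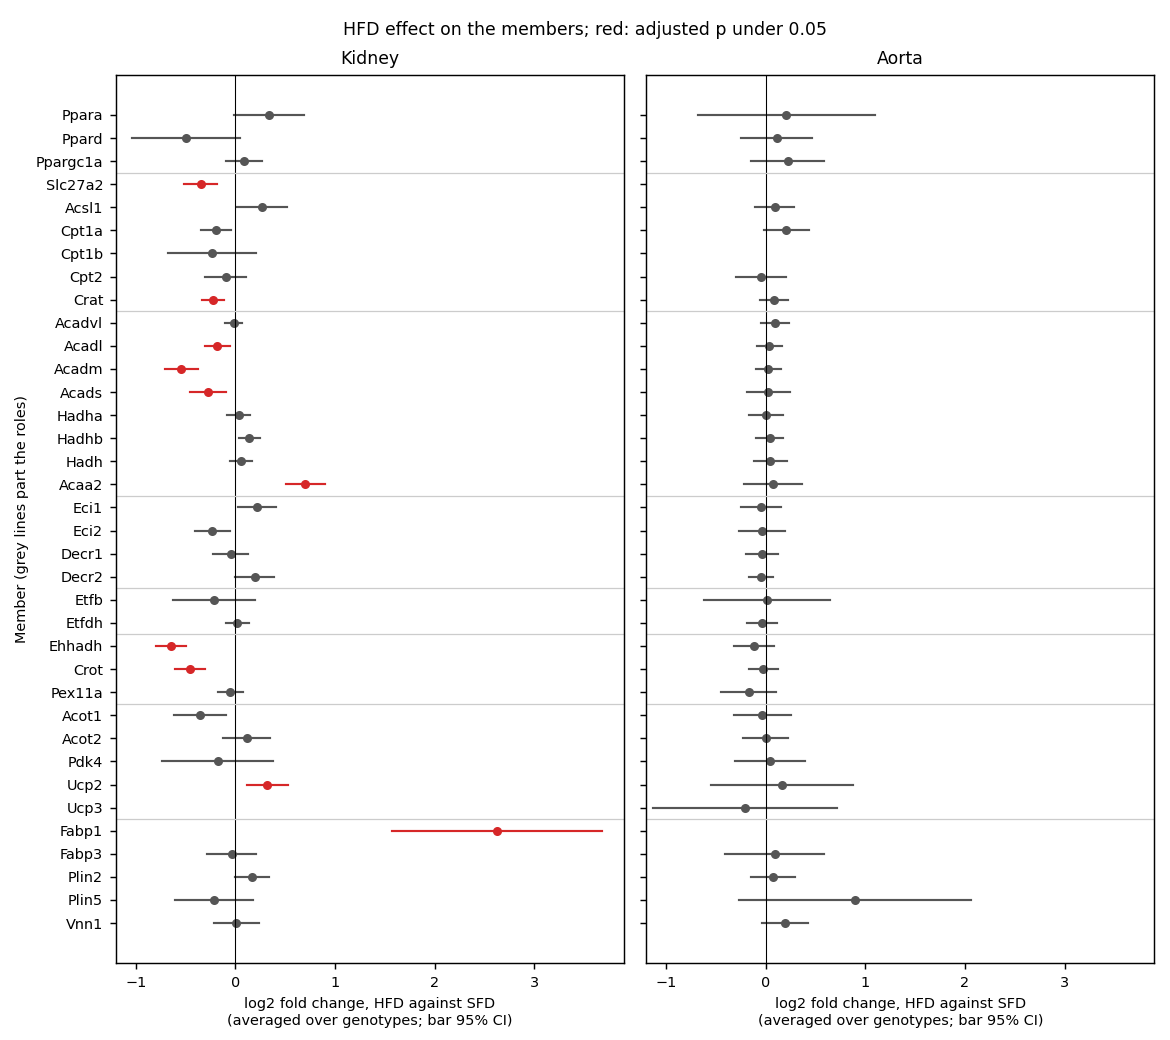
Log2 fold change of HFD against SFD averaged over genotypes for each gene tested, in kidneys (left) and aortas (right), with the 95% confidence interval as a bar, grey lines parting the functional groups and red marking an adjusted p under 0.05. In kidneys 10 genes are red, from Fabp1 at 2.63 to Ehhadh at -0.64, and in aortas none.

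None of the 3 regulators passed the test for diet in kidneys. In WT kidneys, Ppara was at 29.3, 39.3, 31.4, 44.2 and 48.1 FPM under SFD and at 66.3, 29.5, 51.2, 65.9 and 45.5 FPM under HFD. In KO kidneys, Ppara was at 34.0, 18.1, 27.0, 23.7 and 32.0 FPM under SFD and at 29.4, 25.6, 46.2, 20.9 and 37.7 FPM under HFD. The values of all 4 groups overlapped, and 3 of the WT HFD kidneys (a11, a13 and a14) were above every KO value. Averaged over genotypes, the log2 fold change of Ppara was 0.34 (adjusted p = 0.183, SE 0.17). The related receptor Ppard, which is expressed in most tissues, split into high and low libraries, 5 high ones under SFD and 1 under HFD. Ppard in WT kidneys was at 15.01, 42.7, 15.3, 46.4 and 21.2 FPM under SFD and at 17.1, 15.6, 22.0, 19.05 and 22.4 FPM under HFD. KO kidneys gave Ppard values of 14.6, 38.0, 17.7, 32.6 and 39.1 FPM under SFD and 15.1, 11.2, 35.9, 20.1 and 22.2 FPM under HFD. Its 6 highest kidneys (a3, a7, a9, a10, a17 and a19) had 32.6 to 46.4 FPM and clock scores of 0.62 to 1.99, and the other 14 had 11.2 to 22.4 FPM and scores of -2.29 to 1.08. A score is the mean log2 level of a list's genes relative to the mean kidney. The clock score is that of Arntl, Npas2, Clock, Cry1 and Nfil3 minus that of the other clock genes listed, so it contrasts 2 groups of clock genes. The log2 fold change of Ppard was -0.50 (adjusted p = 0.205, SE 0.26), and with the clock score as a covariate it was -0.44 (adjusted p = 0.0144). The WT kidneys held Ppargc1a at 55.6, 66.0, 47.0, 74.1 and 72.8 FPM under SFD and at 78.7, 57.7, 64.6, 73.1 and 66.0 FPM under HFD. For Ppargc1a in KO kidneys, the values were 58.9, 60.6, 63.9, 64.4 and 54.5 FPM under SFD and 57.8, 54.3, 82.0, 58.0 and 64.5 FPM under HFD. The groups of this coactivator of mitochondrial genes overlapped almost fully, at a log2 fold change of 0.087 (adjusted p = 0.547, SE 0.088) and a 95% interval of -0.096 to 0.27.

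**Figure D3:**
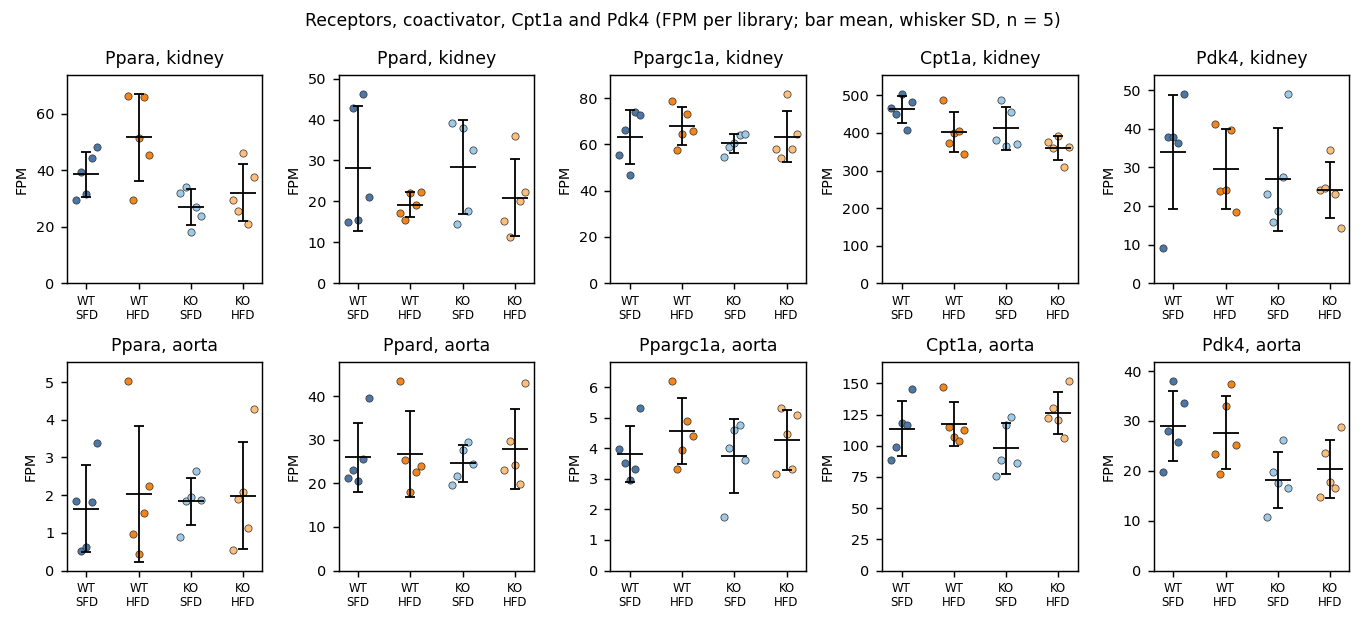
FPM of Ppara, Ppard, Ppargc1a, Cpt1a and Pdk4 in each library of kidneys (top) and aortas (bottom), on linear axes from 0, with bars for the mean and whiskers for the SD (n = 5). Ppard is high in 5 SFD kidneys and 1 HFD kidney, and in all panels the diets overlap within each genotype.

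Uptake, activation and the carnitine shuttle held 2 genes that fell under HFD in kidneys and 4 that did not pass. In WT kidneys, Slc27a2 was at 5839.7, 4553, 4951, 3782 and 4402 FPM under SFD and at 4476, 3328, 4036, 3835 and 3650.0 FPM under HFD. In KO kidneys, Slc27a2 was at 5480.0, 4471, 5009.8, 4129 and 4213 FPM under SFD and at 3337, 3888, 3153, 3596 and 3513 FPM under HFD. In KO the diets did not overlap and all HFD kidneys were lower, and in WT they overlapped, since a11, a13 and a14 under HFD were above a19 under SFD, and a11 above a20 as well. Averaged over genotypes, Slc27a2 fell by 21.5%, a log2 fold change of -0.35 (adjusted p = 0.00371, SE 0.078). It passed in KO (-0.41, adjusted p = 0.0269) and not in WT (-0.28, adjusted p = 0.149), and the KO call was lost without any of a1, a3, a4, a5, a6 or a8. Crat, the carnitine acetyltransferase that exchanges acetyl units between coenzyme A and carnitine, also fell. Crat in WT kidneys was at 169, 146, 191, 154 and 155 FPM under SFD and at 138, 148, 133, 125 and 132 FPM under HFD. KO kidneys gave Crat values of 165, 151, 155, 149 and 140.1 FPM under SFD and 148, 133, 129, 124 and 136 FPM under HFD. The diets met at single libraries, with a12 and a1 highest under HFD. The log2 fold change of Crat was -0.23 (adjusted p = 0.00449, SE 0.052) averaged and -0.27 in WT (adjusted p = 0.0299), where the call was lost without any of a11, a13, a14, a15, a16 or a18.

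Cpt1a, the outer membrane enzyme that sets the rate of entry into mitochondria, did not pass. The WT kidneys held Cpt1a at 466.2, 452, 505, 407 and 482 FPM under SFD and at 489, 374, 399, 405 and 345 FPM under HFD. For Cpt1a in KO kidneys, the values were 487, 365, 457, 369.8 and 380.2 FPM under SFD and 375, 361, 393, 309 and 361 FPM under HFD. SFD values were higher on the whole, but a11 under HFD was among the highest of all. Its averaged log2 fold change was -0.20 (adjusted p = 0.0626, SE 0.071), and it passed without a7, a11 or a19, with adjusted p-values from 0.0201 to 0.131 over the 20 fits that each left out a library. Cpt1b, the muscle form, was near the limit of detection with 8 to 28 counts per library. In WT kidneys, Cpt1b was at 0.566, 0.644, 0.656, 0.761 and 0.703 FPM under SFD and at 0.968, 0.442, 0.962, 0.592 and 0.360 FPM under HFD. In KO kidneys, Cpt1b was at 0.861, 0.826, 0.559, 1.18 and 0.583 FPM under SFD and at 0.421, 0.414, 0.656, 0.788 and 0.664 FPM under HFD. Its groups overlapped, and its log2 fold change was -0.24 (adjusted p = 0.484, SE 0.21). The inner membrane enzyme Cpt2 (-0.099, adjusted p = 0.549, SE 0.10) and Acsl1, which activates long-chain fatty acids (0.27, adjusted p = 0.137, SE 0.12), ranged from 165 to 325 FPM and from 136 to 325 FPM over the 20 kidneys and did not pass.

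In the mitochondrial beta-oxidation cycle, averaged over genotypes, 3 of 4 acyl-CoA dehydrogenases fell and the thiolase Acaa2 rose. Acadm, which opens the cycle for medium-chain acyl groups, separated the diets completely. In WT kidneys, Acadm was at 1447, 1163, 1620.4, 1358 and 1393 FPM under SFD and at 737, 1075, 914, 884 and 1069 FPM under HFD. In KO kidneys, Acadm was at 1320.1, 1508, 1220.0, 1608 and 1249 FPM under SFD and at 1076, 923, 905, 854 and 1088 FPM under HFD. Every HFD kidney of either genotype was below every SFD kidney. Acadm fell by 31.4%, a log2 fold change of -0.54 (adjusted p = 6.42e-05, SE 0.080), with -0.58 in WT (adjusted p = 0.00316) and -0.51 in KO (adjusted p = 0.00758). Acadl acts on long chains. Acadl in WT kidneys was at 471, 393, 529.8, 411 and 403 FPM under SFD and at 335, 421, 372, 359 and 396 FPM under HFD. KO kidneys gave Acadl values of 436, 476, 416, 453 and 396 FPM under SFD and 421, 418, 362, 395 and 387 FPM under HFD. The diets overlapped, and a18 stood highest. Its log2 fold change was -0.18 (adjusted p = 0.0438, SE 0.060). Acads acts on short chains. The WT kidneys held Acads at 333.3, 299, 419.5, 261 and 263 FPM under SFD and at 211, 311, 249, 222 and 237 FPM under HFD. For Acads in KO kidneys, the values were 317, 303, 302, 320.4 and 312 FPM under SFD and 310.0, 271, 218, 277 and 277 FPM under HFD. The diets overlapped here too, with a12 and a1, the near-identical pair, highest under HFD. Its log2 fold change was -0.28 (adjusted p = 0.0325, SE 0.087). Without a18, Acadl and Acads came to adjusted p-values of 0.12 and 0.0819. The call for Acadl was lost in 13 of 20 fits that left out a library (a3 to a9, a11, a13 to a16 or a18, adjusted p up to 0.12) and that for Acads in 10 (a3, a4, a6, a9, a11, a13 to a16 or a18, adjusted p up to 0.0819). Acadvl, for very long chains, ranged from 189.8 to 229.8 FPM at a log2 fold change of -0.019 (adjusted p = 0.784, SE 0.039) and an interval of -0.10 to 0.062.

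Acaa2 completes the cycle by splitting off acetyl-CoA, and averaged over genotypes it was the only enzyme of the cycle that rose. In WT kidneys, Acaa2 was at 255, 183, 283, 230.2 and 203 FPM under SFD and at 279.8, 404, 323, 288 and 351 FPM under HFD. In KO kidneys, Acaa2 was at 224, 194, 239, 147 and 220.3 FPM under SFD and at 404, 378, 327, 411 and 379 FPM under HFD. In KO all HFD kidneys were above all SFD kidneys, while in WT a18 under SFD reached just above the lowest HFD value. The averaged log2 fold change was 0.70 (adjusted p = 2.54e-05, SE 0.095), with 0.51 (adjusted p = 0.0231, SE 0.13) in WT and 0.89 (adjusted p = 2.73e-04, SE 0.13) in KO. The WT call was lost without any of a12, a15, a17 or a20. The difference between genotypes did not pass, with an interaction of 0.38 (adjusted p = 1.00, SE 0.19). Hadhb, which with Hadha forms the trifunctional protein of the inner membrane, rose in KO by 0.24 (adjusted p = 0.0459, SE 0.069). Hadhb in WT kidneys was at 249, 205, 246, 245 and 215 FPM under SFD and at 219, 262, 227, 236 and 254 FPM under HFD. KO kidneys gave Hadhb values of 211, 206, 221, 222 and 213 FPM under SFD and 263, 268, 253, 250.6 and 228 FPM under HFD. In KO the diets did not overlap, and in WT they did, with 0.046 (adjusted p = 0.773, SE 0.069). The interaction did not pass (0.19, adjusted p = 1.00, SE 0.098). The KO call was lost in 13 of the 20 fits that left out a library (without a1 to a4, a6 to a10, a13 to a15 or a19), and averaged over genotypes Hadhb did not pass (0.14, adjusted p = 0.0542, SE 0.049) but passed without a5, a11, a16 or a18. Hadha (0.033, adjusted p = 0.737, SE 0.056) and Hadh, the dehydrogenase for shorter chains (0.055, adjusted p = 0.524, SE 0.052), did not pass averaged or in either genotype, although their KO HFD values were all above their KO SFD values. Across all 35 genes the diets did not overlap for 9 in KO (25.7%, with 7.81% of all genes) and for 4 in WT (11.4%, with 6.64%).

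Hadha and Hadhb lie head to head on chromosome 5, with 272 bases between their RefSeq starts. The annotation used for exon lengths places the starts at 30155162 and 30155248, closer together. The stretch shared by their promoter windows, chr5:30155003-30155230 on the plus strand of GRCm38.p6 from RefSeq, is shown with CpG dinucleotides in capitals. By the RefSeq starts both genes are read outwards from it, while by the other starts part of it lies within Hadha.
Hadha-Hadhb: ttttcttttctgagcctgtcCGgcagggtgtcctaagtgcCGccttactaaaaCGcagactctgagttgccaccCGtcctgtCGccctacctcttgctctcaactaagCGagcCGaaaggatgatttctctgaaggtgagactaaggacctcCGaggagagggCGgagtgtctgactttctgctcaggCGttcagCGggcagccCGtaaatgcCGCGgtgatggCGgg
It holds 15 CpG in 228 bases. Over the 33 promoter windows of 300 bases (250 before to 50 after the start) that matched 31 of the 36 genes, the median number of CpG was 16 and the median GC content 60.7%, where the medians of all 32851 windows were 7 and 52.7%. No windows were matched for Cpt1b, Crat, Acaa2, Decr1 and Vnn1.

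Of the 4 enzymes that fit unsaturated fatty acids into the cycle and the 2 proteins that pass its electrons on, none passed. The isomerases Eci1 and Eci2, the latter also peroxisomal, had log2 fold changes of 0.21 (adjusted p = 0.122, SE 0.091) and -0.23 (adjusted p = 0.0663, SE 0.084). For the dienoyl-CoA reductases, mitochondrial Decr1 had -0.048 (adjusted p = 0.751, SE 0.085) and peroxisomal Decr2 had 0.19 (adjusted p = 0.172, SE 0.093). Without a18, Eci1 and Decr2 passed, and without a2, a17 or a19, Eci2 did. Etfb, a subunit of the electron transfer flavoprotein, stood at 142 FPM in a18 and at 101 FPM in a2 (KO HFD), with 41.9 to 72.0 FPM in the other 18 kidneys, and its log2 fold change was -0.22 (adjusted p = 0.496, SE 0.20). Etfdh, which hands the electrons to ubiquinone, had 0.019 (adjusted p = 0.85, SE 0.055).

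Ehhadh had the largest averaged decrease of the set. It carries the hydratase and dehydrogenase steps of peroxisomal oxidation. In WT kidneys, Ehhadh was at 809, 945, 955, 762 and 911 FPM under SFD and at 441, 547, 637, 666 and 576 FPM under HFD. In KO kidneys, Ehhadh was at 857, 875, 797, 808 and 746 FPM under SFD and at 548, 439, 573, 482 and 514 FPM under HFD. As with Acadm, every HFD kidney was below every SFD kidney. Ehhadh fell by 36%, a log2 fold change of -0.64 (adjusted p = 2.57e-06, SE 0.072), with -0.61 in WT (adjusted p = 6.99e-04) and -0.68 in KO (adjusted p = 2.57e-04). Crot, the carnitine octanoyltransferase by which shortened chains leave peroxisomes, fell as well. Crot in WT kidneys was at 556, 640.4, 645, 622 and 632 FPM under SFD and at 365, 423, 492, 553 and 513 FPM under HFD. KO kidneys gave Crot values of 581, 632, 532, 720.3 and 667 FPM under SFD and 423, 433, 397, 463 and 474 FPM under HFD. Within each genotype the diets did not overlap, though a14 (WT HFD) was above a8 (KO SFD). The log2 fold change of Crot was -0.46 (adjusted p = 1.10e-04, SE 0.071), with -0.40 in WT (adjusted p = 0.0181, lost without a11) and -0.52 in KO (adjusted p = 0.00263). Pex11a, which takes part in peroxisome division, did not pass, with -0.051 (adjusted p = 0.619, SE 0.060) and an interval of -0.18 to 0.075. Across all 35 genes, Ehhadh and Acadm alone did not overlap between the diets over both genotypes (5.71%, with 2.84% of all genes).

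The 100 bases before the starts of the 3 genes with the largest averaged decreases among those that passed are shown for comparison, 5' to 3' on the strand of each gene with CpG in capitals. They are chr16:21787835-21787934, chr3:153944644-153944743 and chr5:8997147-8997246, all on the minus strand of GRCm38.p6 and counted from the RefSeq starts. The annotation used for exon lengths starts Crot at 8997324, so by it the stretch shown for Crot lies within the gene. Those of Ehhadh and Acadm lie before the start by both.
Ehhadh: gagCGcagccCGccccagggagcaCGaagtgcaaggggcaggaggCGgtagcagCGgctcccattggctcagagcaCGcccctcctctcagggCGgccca
Acadm: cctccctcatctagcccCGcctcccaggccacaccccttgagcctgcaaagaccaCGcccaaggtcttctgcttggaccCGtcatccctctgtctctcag
Crot: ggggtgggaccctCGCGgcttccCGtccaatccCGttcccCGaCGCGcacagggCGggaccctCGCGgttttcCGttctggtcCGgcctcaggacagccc
They hold 7, 3 and 12 CpG. The window of none of these genes held the direct repeat that PPAR and retinoid X receptor bind, AGGTCA repeated with 1 base between, within 2 mismatches of its 12 fixed letters on either strand.

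Among thioesterases, the fuel switch and uncoupling proteins, Ucp2 rose and 3 genes did not pass. Ucp2 is a carrier of the inner mitochondrial membrane. In WT kidneys, Ucp2 was at 64.8, 67.7, 93.05, 59.9 and 59.1 FPM under SFD and at 83.5, 90.7, 105, 86.2 and 67.2 FPM under HFD. In KO kidneys, Ucp2 was at 77.3, 56.9, 77.7, 64.1 and 58.3 FPM under SFD and at 90.6, 93.8, 64.9, 91.3 and 73.3 FPM under HFD. HFD values were mostly higher, with a15 and a3 low under HFD and a18 high under SFD. Its log2 fold change was 0.32 (adjusted p = 0.0331, SE 0.10), an increase of 24.7%. The call was lost in 12 of the 20 fits that left out a library (a1, a2, a4, a7, a9, a10, a12, a13, a16, a17, a19 or a20), with adjusted p-values from 0.00482 to 0.0687, and it was lost without the near-identical pair (0.29, adjusted p = 0.0779). Macrophages also express Ucp2, and the summed macrophage markers are given above. The kidney highest for Ucp2, a13 (WT HFD), also had the highest macrophage score (0.63), and a2 and a4 (KO HFD), next highest under HFD, had 0.54 and 0.51. The 3 HFD kidneys lowest for Ucp2, a3, a15 and a5, had scores of 0.25, 0.037 and -0.034. The SFD kidney highest for Ucp2, a18, had the lowest score (-1.01). The part of macrophages was not tested. Pdk4 holds pyruvate back from oxidation and is a known PPAR target. Pdk4 in WT kidneys was at 9.18, 37.8, 37.8, 36.4 and 48.98 FPM under SFD and at 41.3, 23.8, 24.1, 39.8 and 18.4 FPM under HFD. KO kidneys gave Pdk4 values of 15.9, 18.7, 27.6, 49.2 and 23.2 FPM under SFD and 24.2, 24.6, 34.5, 23.1 and 14.3 FPM under HFD. Values spread over a wide range within each group and overlapped, and the log2 fold change was -0.18 (adjusted p = 0.7, SE 0.27) with an interval of -0.74 to 0.38. The thioesterases Acot1 (-0.36, adjusted p = 0.0556, SE 0.12) and Acot2 (0.11, adjusted p = 0.547, SE 0.11) release fatty acids from coenzyme A in the cytosol and in mitochondria. Their longest transcripts shared 95.1% of 1274 aligned bases, so reads may be split between them and both values are uncertain. Acot1 passed without a12, a16 or a20. Ucp3 was too low to test, with 0 to 48 counts per kidney.

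Fabp1 gave the largest fold change of the set at a low level, with 1 to 182 counts per kidney. The WT kidneys held Fabp1 at 0.799, 0.0429, 0.525, 0.304 and 0.165 FPM under SFD and at 1.18, 3.83, 3.39, 2.59 and 4.12 FPM under HFD. For Fabp1 in KO kidneys, the values were 0.507, 3.05, 0.140, 0.0420 and 0.269 FPM under SFD and 3.81, 3.26, 3.85, 4.64 and 3.99 FPM under HFD. Within each genotype all HFD kidneys were above all SFD kidneys, and a7 (KO SFD) alone of the SFD kidneys reached the HFD range. The averaged log2 fold change was 2.63 (adjusted p = 0.0011, SE 0.50). Fabp1 passed in WT (2.995, adjusted p = 0.0164, SE 0.74) and not in KO (2.26, adjusted p = 0.0571, SE 0.69), where it passed without a7 or a17. Leaving out each library in turn gave averaged values from 2.47 to 3.52. The other 4 genes of binding proteins, lipid droplets and further PPAR-alpha targets did not pass. They were Fabp3 (-0.037, adjusted p = 0.866, SE 0.12), the droplet coats Plin2 (0.17, adjusted p = 0.179, SE 0.083, passing without a18) and Plin5 (-0.22, adjusted p = 0.48, SE 0.19), and Vnn1 (0.0083, adjusted p = 0.968, SE 0.11). Plin5 and Vnn1 were highest in a18, at 22.0 and 191 FPM, where the other kidneys held 6.03 to 10.4 and 88.7 to 129 FPM.

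Fabp1 was also the gene whose promoter window came closest to this PPAR repeat. Within 2 mismatches of its 12 fixed letters, on either strand, the repeat was found in 3 of the 33 windows of the set (9.09%) and in 3.86% of all 32851 windows. The match in Fabp1 had 1 mismatch on the minus strand at positions -67 to -55 from the start, and those in Ucp3 and Plin2 had 2. Positions are counted from the RefSeq start. The annotation used for exon lengths starts Fabp1 at 71199827, so by it the last part of its stretch lies within the gene and the match before it. The bases around each are shown with the match in capitals, from chr6:71199729-71199878 and chr7:100472920-100472972 on the plus strand and chr4:86670252-86670304 on the minus strand of GRCm38.p6 (RefSeq).
Fabp1: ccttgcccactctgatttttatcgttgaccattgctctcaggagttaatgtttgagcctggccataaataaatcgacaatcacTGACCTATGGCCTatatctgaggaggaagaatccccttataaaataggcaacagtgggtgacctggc
Ucp3: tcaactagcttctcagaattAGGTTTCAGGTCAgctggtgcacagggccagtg
Plin2: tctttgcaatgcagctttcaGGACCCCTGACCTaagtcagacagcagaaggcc
Fabp1 rose under HFD, Plin2 did not pass and Ucp3 could not be tested. The single site TNAAGGTCA, which oestrogen-related receptors bind and whose last letters AGGTCA it shares with the repeat, was in 0 of the 33 windows and in 1.28% of all. A match is a likeness of letters and does not show that a receptor binds.

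**Figure D4:**
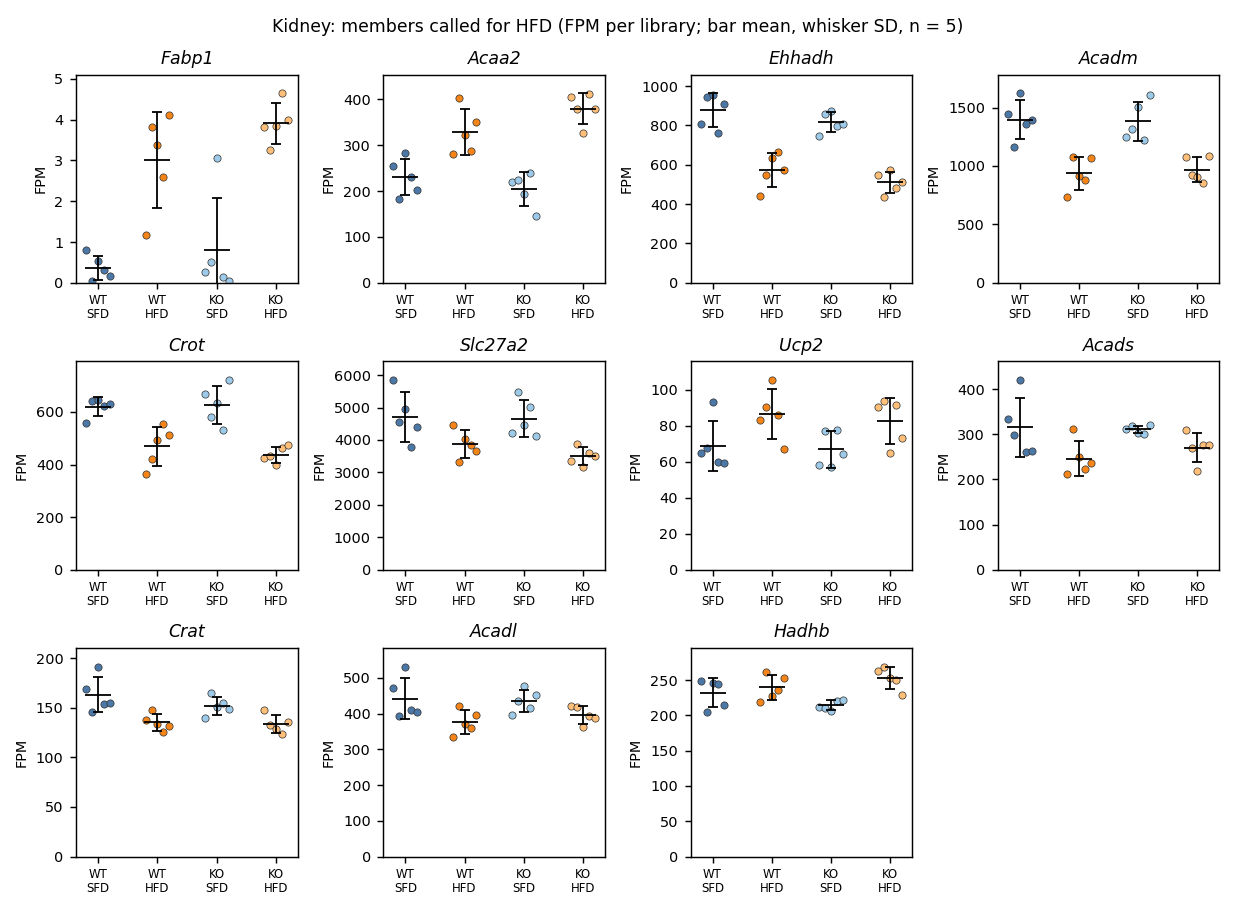
FPM in each of the 20 kidneys for the 11 genes called for HFD in WT, in KO or averaged, by group, on linear axes from 0, with bars for the mean and whiskers for the SD (n = 5). Ehhadh and Acadm separate the diets completely, Fabp1 and Crot do so within each genotype, and Acadl, Acads and Ucp2 overlap.

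Endothelial EGFR loss changed none of these genes detectably in kidneys. For KO against WT, 0 of 35 passed under SFD and 0 under HFD, as did 0 of all 15943 genes (0%), while at an unadjusted p under 0.05 it was 1 of 35 under each diet (2.86%, against 2.67% and 3.42% of all genes). Under SFD 30 of 35 were lower in KO, with a median of -0.089 against -0.0059 for all genes, and under HFD 16 of 35, with 0.025 against -0.0078. The gene past the unadjusted limit was Ppara both times, with -0.51 (adjusted p = 1.00, SE 0.24) under SFD and -0.69 (adjusted p = 0.814, SE 0.24) under HFD. Its mean was 38.5 ± 8.09 FPM in WT SFD, 27.0 ± 6.41 in KO SFD, 51.7 ± 15.4 in WT HFD and 32.0 ± 10.1 in KO HFD (SD, n = 5). The groups overlapped under both diets. The test of whether the diet effect differed between genotypes also gave 0 of 35, with 0 of all genes (0%), and at an unadjusted p under 0.05 0 of 35 (0%) against 1.79%. DESeq2's Wald test called 0 of the set in these 3 comparisons as well. The half-width of the 95% interval of a single gene had a median of 0.26 on the log2 scale for KO against WT and 0.37 for the interaction. These intervals are not adjusted for the number of genes tested, so larger differences could also fail to pass, as Ppara did at -0.69 under HFD. For Ehhadh, the difference of the diet effects was -0.064 with an interval of -0.36 to 0.23, and for Acadm 0.066 with -0.27 to 0.40.

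Further genes of the pathway, from lists written for this report, were counted in the averaged HFD comparison in kidneys, where 16.4% of all genes passed. Of 17 other genes of mitochondrial oxidation and ketone bodies, 11 could be tested and 6 fell. Bdh1, which interconverts the ketone bodies, fell by 0.73 (adjusted p = 2.57e-06, SE 0.081) and the isomerase Eci3 by 0.68 (adjusted p = 5.37e-05, SE 0.099). Of 23 other peroxisomal genes, 19 could be tested and 9 passed, 1 higher and 8 lower. Among them Acox2, an oxidase for branched chains and bile acid precursors, fell by 0.84 (adjusted p = 5.74e-08, SE 0.070), with 119 to 151 FPM under SFD and 59.1 to 89.5 FPM under HFD. Of 7 omega-oxidation genes, which hydroxylate the far end of fatty acids, 3 passed, with Cyp4a14 higher by 1.62 (adjusted p = 0.00132, SE 0.31) and Cyp4a12a lower by 1.21 (adjusted p = 9.74e-04, SE 0.23). Reads of the Cyp4a family may be split between its closely related members, so these values are uncertain. Of 24 other genes of uptake, binding and storage, 20 could be tested and 5 passed, 3 higher and 2 lower. The kinase Pdk1 was higher by 0.65 (adjusted p = 1.47e-05, SE 0.084), and Cd36, a fatty acid translocase, fell by 0.72 (adjusted p = 4.51e-09, SE 0.049), with 564 to 745 FPM under SFD and 341 to 415 FPM under HFD. Of 17 other regulators, 3 passed, Nrip1 higher and Sirt3 and Lpin1 lower. In aortas, 0 of the tested genes of these 5 lists passed.

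In aortas HFD changed none of these genes detectably. Averaged over genotypes 0 of 33 genes passed, where 8 of all 15122 genes did (0.0529%). In WT it was 0 of 33 with 0.0132% of all genes, and in KO 0 of 33 with 0%. At an unadjusted p under 0.05 it was 0 of 33 averaged (0%, against 6.7% of all genes), 1 in WT (Plin5, 3.03%, against 2.61%) and 1 in KO (Cpt1a, 3.03%, against 4.56%). DESeq2's Wald test also called 0 of the set. The median log2 fold change was 0.035 for the set and -0.0013 for all genes. In the set 22 genes were above 0 and 11 below, and of all genes 49.6% were above 0. The set took 0.141 to 0.168% of aortic counts under SFD and 0.145 to 0.178% under HFD. A single gene's averaged log2 fold change had a median 95% half-width of 0.23 here and of 0.18 in kidneys.

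The aortic regulators varied more between libraries than between diets. Ppara in WT aortas was at 1.86, 0.527, 0.634, 1.81 and 3.38 FPM under SFD and at 0.957, 0.440, 1.52, 2.24 and 5.03 FPM under HFD. KO aortas gave Ppara values of 0.883, 1.86, 1.95, 2.63 and 1.88 FPM under SFD and 0.546, 1.90, 2.08, 1.12 and 4.29 FPM under HFD. In WT and KO alike the diets overlapped. The WT aortas held Ppard at 21.1, 23.1, 20.6, 25.6 and 39.5 FPM under SFD and at 25.3, 18.0, 22.7, 23.9 and 43.6 FPM under HFD. For Ppard in KO aortas, the values were 19.5, 21.6, 27.8, 29.5 and 24.5 FPM under SFD and 23.0, 29.7, 24.1, 19.9 and 43.0 FPM under HFD. Both receptors were highest in the same libraries, R-5 (WT SFD), R-10 (WT HFD) and R-20 (KO HFD). In these 3 libraries Ppara was at 3.38 to 5.03 FPM and Ppard at 39.5 to 43.6 FPM, with smooth muscle scores of 0.30 to 0.55, and in the other 17 at 0.44 to 2.63 FPM and 18.0 to 29.7 FPM, with scores of -0.20 to 0.095. Whether the share of smooth muscle cells plays a part was not tested. The log2 fold changes of HFD were 0.21 (adjusted p = 0.999, SE 0.42) for Ppara and 0.11 (adjusted p = 0.999, SE 0.17) for Ppard. In WT aortas, Ppargc1a was at 3.97, 3.51, 2.96, 3.34 and 5.31 FPM under SFD and at 3.32, 3.96, 4.90, 4.41 and 6.21 FPM under HFD. In KO aortas, Ppargc1a was at 1.77, 3.995, 4.60, 4.77 and 3.62 FPM under SFD and at 3.17, 5.31, 4.45, 3.31 and 5.08 FPM under HFD. Its groups overlapped, with 0.22 (adjusted p = 0.97, SE 0.18).

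Cpt1a came closest to the threshold in aortas. In WT aortas, Cpt1a was at 88.5, 98.8, 119, 117 and 146 FPM under SFD and at 115, 107, 104, 113 and 147 FPM under HFD. In KO aortas, Cpt1a was at 75.9, 88.2, 117, 123 and 85.9 FPM under SFD and at 122, 130.1, 121, 106 and 152 FPM under HFD. R-5, R-10 and R-20 were again highest, and the diets overlapped in both genotypes. The averaged log2 fold change was 0.20 (adjusted p = 0.81, SE 0.11), with 0.043 in WT and 0.37 in KO. Pdk4 in WT aortas was at 19.8, 28.0, 38.1, 25.7 and 33.6 FPM under SFD and at 19.4, 32.9, 37.4, 25.2 and 23.4 FPM under HFD. KO aortas gave Pdk4 values of 10.8, 19.8, 17.6, 26.2 and 16.6 FPM under SFD and 14.8, 23.6, 17.8, 16.5 and 28.8 FPM under HFD. For Pdk4 the diets overlapped (0.046, adjusted p = 0.999, SE 0.17), and under SFD the KO values lay lower than the WT values but overlapped them. Cpt1b was barely detected, with 0 to 16 counts per aorta. The WT aortas held Cpt1b at 0.0281, 0.307, 0, 0.667 and 0.0878 FPM under SFD and at 0.101, 0.0550, 0.117, 0.112 and 0.468 FPM under HFD. For Cpt1b in KO aortas, the values were 0.186, 0.0281, 0.300, 0.199 and 0.188 FPM under SFD and 0.382, 0.779, 0.0416, 0.107 and 0.247 FPM under HFD. No order of the groups could be read from it.

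The other genes with the smallest averaged p-values in aortas were Vnn1, Plin5, Acadvl and Pex11a. The WT aortas held Vnn1 at 3.40, 2.77, 3.01, 3.48 and 3.20 FPM under SFD and at 3.83, 4.40, 3.32, 3.24 and 3.57 FPM under HFD. For Vnn1 in KO aortas, the values were 4.14, 3.43, 3.60, 2.83 and 2.77 FPM under SFD and 2.95, 4.04, 4.25, 4.27 and 3.50 FPM under HFD. The groups overlapped, with 0.20 (adjusted p = 0.843, SE 0.11). Plin5 in WT aortas was at 0.478, 0.527, 0.687, 0.286 and 0.0878 FPM under SFD and at 1.61, 0.495, 3.56, 0.615 and 0.176 FPM under HFD. KO aortas gave Plin5 values of 0.139, 0.506, 0.200, 0.944 and 0.0470 FPM under SFD and 0.984, 0.341, 0.458, 0.0533 and 0.247 FPM under HFD. R-8 and R-6, both WT HFD, stood above the rest. These 2 aortas had 1.61 to 3.56 FPM of Plin5 and brown adipocyte scores of 0.77 to 1.54, and the other 18 had 0.047 to 0.984 FPM and scores of -0.97 to 0.77. The 8 brown adipocyte markers summed to 58.6 to 172.9 FPM under HFD and to 70.5 to 129.8 FPM under SFD, with Ucp1 between 0.143 and 74.5 FPM and Elovl3 from 0 to 2.62 FPM. On average the largest part of the sum came from Dio2, at 18.4 to 114 FPM. Whether fat left on the vessel plays a part was not tested. The log2 fold change of Plin5 was 1.63 (adjusted p = 1.00, SE 0.77) in WT and 0.90 (adjusted p = 0.879, SE 0.56) averaged. In WT aortas, Acadvl was at 58.8, 52.2, 59.0, 61.0 and 62.0 FPM under SFD and at 62.2, 52.8, 60.1, 66.1 and 73.0 FPM under HFD. In KO aortas, Acadvl was at 50.8, 59.0, 63.8, 66.6 and 56.0 FPM under SFD and at 55.5, 66.9, 64.2, 62.1 and 65.6 FPM under HFD. The values overlapped, with 0.093 (adjusted p = 0.954, SE 0.067). The WT aortas held Pex11a at 4.33, 6.45, 6.24, 7.20 and 6.45 FPM under SFD and at 4.94, 6.76, 6.36, 4.64 and 3.98 FPM under HFD. For Pex11a in KO aortas, the values were 6.79, 4.39, 4.55, 6.16 and 3.81 FPM under SFD and 4.92, 4.48, 4.12, 5.23 and 4.49 FPM under HFD. KO HFD values lay close together inside the range of the other groups, with -0.17 (adjusted p = 0.964, SE 0.13). Ucp2, picked out after its values were seen, was highest in R-16 (KO HFD) at 152.7 FPM and R-11 (KO SFD) at 83.3 FPM, which had lymphoid scores of 4.11 and 3.39, and was at 19.9 to 82.5 FPM in the other 18 aortas with scores of -1.58 to 1.13. The macrophage score was 1.14 in R-16, the highest of the 20 aortas, and 0.095 in R-11. The part of these cell types was not tested. Without R-16 and R-11, left out after their values were seen, 0 genes of the set passed as well.

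**Figure D5:**
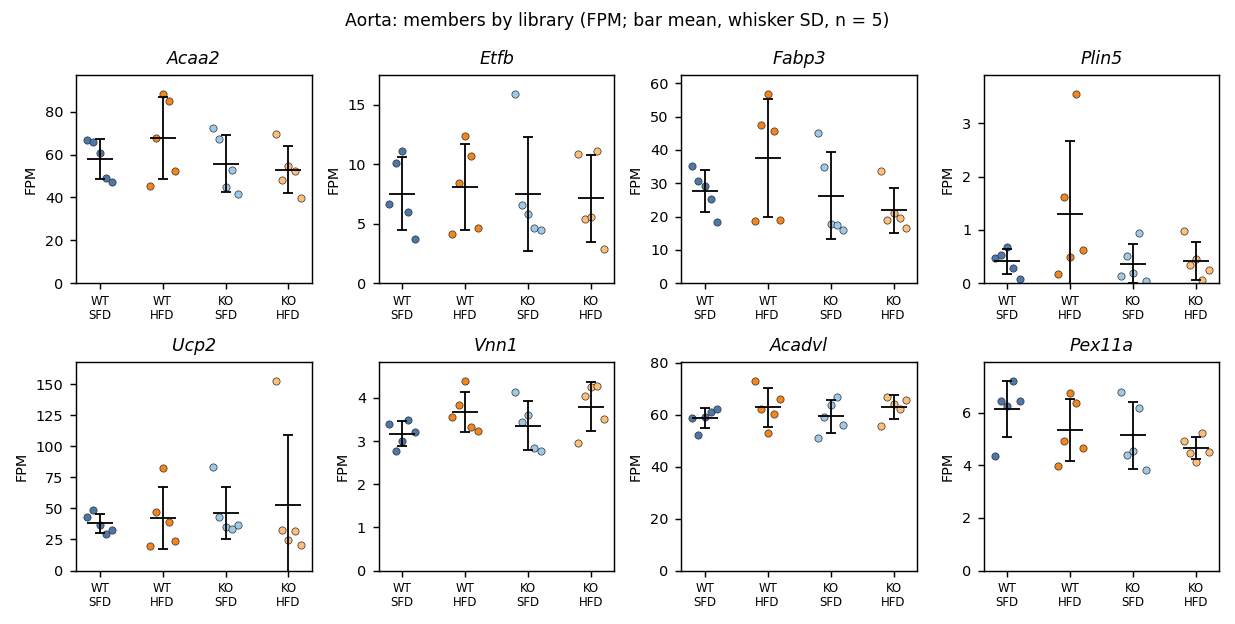
FPM of 8 genes in each of the 20 aortas, by group, on linear axes from 0, with bars for the mean and whiskers for the SD (n = 5). The panels of Plin5 and Ucp2 show single libraries far above their groups, and in all 8 panels the diets overlap within each genotype.

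For KO against WT in aortas, 27 of the 33 genes were lower under SFD and 27 under HFD, though 0 passed under either diet (0% of all genes in both). Of all genes, 49% were higher in KO under SFD and 51.7% under HFD. The median log2 fold change of the set was -0.079 under SFD and -0.15 under HFD, where that of all genes was -0.0035 and 0.0088. At an unadjusted p under 0.05 it was 2 of 33 under SFD (6.06%, against 2.28% of all genes) and 5 of 33 under HFD (15.2%, against 5.85%). Under SFD these were Pdk4 with -0.67 (adjusted p = 1.00, SE 0.24) and Acadl with -0.20 (adjusted p = 1.00, SE 0.085). Under HFD they were Hadh (-0.33, adjusted p = 0.59, SE 0.11), Eci1 (-0.34, adjusted p = 0.714, SE 0.14), Acadl (-0.21, adjusted p = 0.742, SE 0.085), Fabp3 (-0.78, adjusted p = 0.798, SE 0.34) and Plin5 (-1.62, adjusted p = 0.847, SE 0.77). Brown adipocyte scores ran from -0.90 to 1.54 in WT HFD and from -0.36 to -0.064 in KO HFD aortas. Single markers of this list differed in direction. Mean Ucp1 was 22.3 FPM in WT HFD and 4.79 FPM in KO HFD, but it ranged from 0.143 to 74.5 FPM over all aortas. Mean Dio2, on average the largest part of the summed markers, was 44.9 FPM in WT HFD and 75.4 FPM in KO HFD. The 5 aortas highest for Fabp3 (R-1, R-6, R-7, R-8 and R-11), 3 of them WT HFD, had 35.1 to 56.96 FPM of Fabp3 and scores of -0.29 to 1.54, and the other 15 had 16.03 to 34.97 FPM and scores of -0.97 to 0.77. The part of fat cells in these values was not tested. The libraries R-1 and R-12, which hold nearly the same counts, stand on opposite sides of the comparison under SFD. For the interaction 0 of 33 passed (0% of all genes), and 0 of 33 had an unadjusted p under 0.05 (0.84% of all genes).

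Whether the diet effect differed between tissues was tested on all 40 libraries. It differed for 5 of the 36 genes (13.9%), where 6.5% of all 17514 genes passed. Acadm had a difference, kidney minus aorta, of -0.58 (adjusted p = 4.28e-04, SE 0.10). For Ehhadh it was -0.54 (adjusted p = 0.00356, SE 0.12) and for Crot -0.45 (adjusted p = 0.00489, SE 0.10). Crat had -0.32 (adjusted p = 0.0212, SE 0.087), a call lost without any of R-4, R-7, R-13, R-14, R-15 or a4, with adjusted p-values up to 0.0668. Acaa2 had 0.62 (adjusted p = 0.0253, SE 0.18), and its call was lost without R-12 (adjusted p = 0.0516) and without both near-identical pairs (0.50, adjusted p = 0.163). In aortas the same 5 genes had averaged log2 fold changes of 0.027 (interval -0.10 to 0.15), -0.12 (-0.32 to 0.081), -0.023 (-0.17 to 0.12), 0.082 (-0.060 to 0.22) and 0.074 (-0.22 to 0.37) in this order. Cpt1a, lower under HFD in kidneys and higher in aortas without passing in either, came to -0.41 (adjusted p = 0.0556, SE 0.13), and passed without R-5, R-14, R-19, a11 or a19. The median difference over the set was -0.13 and over all genes 0.001. For Slc27a2, called in kidneys, the aortas held too few counts for a difference to be detectable.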

How the data were processed

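The authors extracted total RNA, enriched mRNA with oligo(dT) beads and sequenced it, and deposited one table per tissue with raw counts per gene. Per the labels, reads were mapped to mm10 with HISAT2 2.1.0 and counted with featureCounts; the paper's methods name TopHat2 instead. The strand setting is not given in the sources used here. Groups come from the labels.

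From the deposited counts, each tissue was fitted with edgeR 4.0.16 in R 4.3.3 (TMM normalization, filterByExpr by group, robust quasi-likelihood test), with Benjamini-Hochberg adjustment over all genes tested. The limit was an adjusted p of 0.05. The averaged HFD effect is the mean of the effects in WT and KO. A joint fit of 40 libraries compared the tissues. FPM is counts scaled to 1000000 per normalized library, and FPKM divides it by the union of exons in kilobases. The fit was tested on simulated data. The genes, lists and tests were chosen with earlier results of these data known, so they are not independent evidence. Values per library are given for genes called for HFD, for Ppara, Ppard, Ppargc1a, Cpt1a, Cpt1b and Pdk4, and, where under 5 were called, for the 5 with the smallest averaged p; of further pathway genes, at most 8 called ones with the largest changes are named, and a result among them is not reported here. Promoters come from RefSeq on GRCm38.p6, and transcripts were compared with blastn 2.17.0. The protein ends planned for the peroxisomal targeting signal were not analysed here. Alternatives were DESeq2 1.42.0 (size factors and Wald test), edgeR's likelihood ratio test, other filters and thresholds, no robust estimation, the compared groups alone, cell type and clock scores as covariates, and leaving out each library or the near-identical ones. Leaving out the kidneys with high immediate-early genes or the aortas with high lymphoid genes was added after seeing the data.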

Additional observations from a re-analysis of the deposited data

Results flagged for a closer look

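Some single libraries stood apart within their groups of 5. In kidneys, Fabp1 was high in a7 of KO SFD at 3.05 FPM, Crot was low in a16 of WT SFD at 556 FPM, and Ucp2 was high in a18 of WT SFD at 93.05 FPM. In aortas, Ppard was high in R-5 of WT SFD at 39.5 FPM and in R-10 of WT HFD at 43.6 FPM. The same library R-10 was high for Cpt1a at 147 FPM and for Cpt1b at 0.468 FPM, the latter from few counts. These were 7 of 108 groups looked at, where about 1 in 20, or 5.4, would stand out by chance.

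The effect of HFD differed between kidneys and aortas for 5 genes by the test of the difference itself, given as kidney minus aorta on the log2 scale. It was -0.58 for Acadm, -0.54 for Ehhadh, -0.45 for Crot, -0.32 for Crat and 0.62 for Acaa2. Tissue and count table cannot be told apart.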

How the results depend on the processing

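Of the 14 counts of genes called, those for KO against WT, for the interaction and for HFD in aortas stayed at 0 under every alternative run. Leaving out each library in turn gave 4 to 6 genes for HFD in WT kidneys, 4 to 7 in KO kidneys, 7 to 12 averaged, 4 to 6 for the tissue difference and 33 to 34 for kidneys against aortas. Fitted on the compared groups alone, WT kidneys gave 3 genes (Acadm, Ehhadh and Fabp1). With the study's thresholds the counts were 1 in WT kidneys, 2 in KO kidneys and 2 averaged, since Fabp1 lies under 5 FPM and the other lost genes changed by under 1.5-fold. Fabp1, Acaa2, Ehhadh, Acadm, Crot, Slc27a2 and Crat kept their averaged call without any single library and under every other alternative run at the same threshold, and 0 called values changed sign. Some values that had not passed did, with aortic Ppara from -0.27 to 0.33 over the alternatives and from -0.12 to 0.43 without single libraries (0.21 as reported), aortic Ppard from -0.11 to 0.20 (0.11 as reported) and Pdk4 in kidneys from -0.18 to 0.086 (-0.18 as reported), all averaged over genotypes. Without the near-identical pair the counts in kidneys were 6, 4 and 10, and without a8, a9 and a17 they were 6, 4 and 7 (Ucp2, Acads and Acadl being lost), a choice made after seeing the data. The clock score as covariate gave 7, 6 and 14. No paired analysis was possible because the groups compared share no library number. Depth limits Fabp1, Cpt1b, Ucp3 and, in aortas, Slc27a2 and Plin5.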

Other observations

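The library a18 of WT SFD held the highest value of the 20 kidneys for 19 of the 36 genes, among them Acadm, Acadl, Acads, Cpt1a, Cpt2, Decr1, Hadha, Ehhadh, Acot1 and Plin5. Its proximal tubule score was -0.071, within the range of the other kidneys, while its endothelial, podocyte and macrophage scores were -1.07, -1.52 and -1.01. Without it, Acadl, with an averaged log2 fold change of -0.13, and Acads, with -0.20, no longer passed, and Hadhb, Eci1, Decr2 and Plin2 did. Ehhadh was then at -0.62 and Acadm at -0.50.

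In aortas, R-8 of WT HFD held the highest values for 7 of the 36 genes and R-7 of the same group for 6. R-8 had the highest brown adipocyte score of the 20 aortas (1.54), an endothelial score of -1.04 and a podocyte score of -0.76, and R-7 had 0.39, 0.16 and -0.063. Their part in these values was not tested.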
